A study of Homo sapiens with 4 samples.

Results

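The 10 genes described here encode the 3 chains of fibrinogen (FGA, FGB and FGG), 3 other acute phase proteins of plasma (ORM1, ORM2 and HP) and 4 parts of the interleukin-6 (IL-6) signal (IL6R, IL6ST, STAT3 and SOCS3). They were taken by gene symbol from a table of 26603 genes, in which each had 1 row. Their levels were measured by RNA sequencing in PLC8024, a single line of human liver cancer cells that both groups share, with 2 libraries from cells given a drug and 2 from control cells. The labels do not say which drug was given, at what dose or for how long. Separate cultures are not stated for them either, so each p-value measures only the spread between these 4 libraries, which may be technical. Levels are in FPKM, fragments scaled to exon length and to the reads of the library, and values of a group always stand in the order of its libraries 1 and 2. Of the 10 genes, 8 averaged 1 FPKM or more in at least 1 group and were tested, together with all other genes that did (11227 in all), while HP and SOCS3 lay below. Changes are given on the scale of log2(FPKM + 1), which understates those of genes with low levels.

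Fibrinogen is made by hepatocytes as a dimer in which an alpha, a beta and a gamma chain are joined, and thrombin cuts it into the fibrin of clots. During inflammation IL-6 binds its receptor IL6R, the pair engages the signalling subunit IL6ST (gp130), and JAK kinases then activate the transcription factor STAT3, which acts with C/EBP factors to raise fibrinogen, orosomucoid and haptoglobin mRNA in the liver. SOCS3 is itself induced by STAT3 and shuts the gp130 signal off.

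With drug, all 3 fibrinogen chains fell, FGB to 0.515 and FGG to 0.488 of their control mean and FGA to 0.780, and the orosomucoid genes ORM1 and ORM2 fell as well. Of the IL-6 signal genes, IL6ST was slightly higher, and IL6R and STAT3 did not pass the test. By limma with Benjamini-Hochberg adjustment over all tested genes, 5 of the 8 tested members were lower and 1 was higher at an adjusted p under 0.05, against 6.02% of all tested genes called lower and 7.78% called higher. Both drug libraries lay below both controls for 5 of the 8 members and above them for 2, against 23.3% and 40.3% of all tested genes. edgeR on whole reads recovered from the table tested all 10 members and called the same 5 lower and IL6ST higher, against 7.22% of its genes called lower and 5.76% called higher. In the authors' deposited table, 5 of the 10 had an adjusted p under 0.05 and were lower and 1 was higher, against 4.03% and 3.18% of its genes. The members were chosen with earlier results of these data known, so their counts are not a test against these shares.

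Recovered reads totalled 40279560 and 38685856 in the drug libraries, against 28526098 and 38611635 in the control libraries. Markers of liver cells were partly present. Of 11 hepatocyte markers measured, 8 reached a mean of 1 FPKM over the 4 libraries, among them CPS1, TF and HNF4A, while APOB and TTR were near 0 and ALB and AFP were low. Their summed level was 369 and 365 FPKM in drug libraries, against 494 and 483 FPKM in control libraries. CPS1 carried most of that difference, with 208 and 203 FPKM with drug and 306 and 296 FPKM in controls. Of the 8 tested markers limma called 6 lower (ALB, APOA1, APOH, TF, AHSG and CPS1), against 6.02% of all tested genes. APOA1 and APOH lost their calls without the filter on low values and in a fit with the replicate number as a block. APOA1, APOH and TF also lost calls with single libraries left out. HNF4A was called higher, against 7.78% of all tested genes, and SERPINA1 did not pass. The median log2 fold change of the tested markers was -0.28, against 0.04 over all tested genes. The part of these markers in the fall of the fibrinogen chains was not tested. Epithelial markers summed to 400 and 421 FPKM with drug and 300 and 313 FPKM in controls, where KRT8 and KRT18 were higher and CDH1 lower (limma adjusted p = 0.00851, 0.00391 and 0.00175). Among the markers of other cell types, leukocyte markers summed to 283 and 287 FPKM with drug and 181 and 184 FPKM in controls, nearly all of it LYZ, with CD14 below 1 FPKM. Endothelial markers summed to 2.13 and 2.25 FPKM with drug and 4.73 and 4.2 FPKM in controls, nearly all of it PECAM1. Cholangiocyte markers summed to 3.17 and 3.49 FPKM with drug and 3.45 and 3.20 FPKM in controls, and fibroblast and stellate markers to 1.07 and 1.02 FPKM with drug and 0.64 and 0.62 FPKM in controls. In bulk RNA, fewer cells that express a gene and less of its RNA per cell cannot be told apart.

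The stretches in front of the 3 fibrinogen genes are shown because these genes lie side by side on chromosome 4 and fell together. Each line gives the 250 bases before the RefSeq start (GRCh38.p14), 5′ to 3′ on the strand of the gene, and capitals mark matches to any of 5 motifs on either strand. The motifs were a STAT site (TTCNNNGAA), the type 2 IL-6 response element (CTGGGAA), a C/EBP site (TTNCNNAA), a half-site of the liver factor HNF1 (GTTAAT) and a glucocorticoid receptor half-site (TGTTCT).
FGB promoter, chr4:154562730-154562979, plus strand: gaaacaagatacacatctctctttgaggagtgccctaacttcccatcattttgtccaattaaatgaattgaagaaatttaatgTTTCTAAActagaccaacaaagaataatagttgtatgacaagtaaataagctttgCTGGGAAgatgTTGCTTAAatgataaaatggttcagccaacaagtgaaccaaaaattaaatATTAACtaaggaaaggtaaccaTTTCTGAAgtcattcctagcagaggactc
FGA promoter, chr4:154590743-154590992, minus strand: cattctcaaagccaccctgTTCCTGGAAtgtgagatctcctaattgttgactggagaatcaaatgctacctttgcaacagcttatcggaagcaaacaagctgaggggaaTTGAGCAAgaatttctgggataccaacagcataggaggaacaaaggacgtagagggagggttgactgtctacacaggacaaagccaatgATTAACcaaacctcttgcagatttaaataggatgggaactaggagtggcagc
FGG promoter, chr4:154612657-154612906, minus strand: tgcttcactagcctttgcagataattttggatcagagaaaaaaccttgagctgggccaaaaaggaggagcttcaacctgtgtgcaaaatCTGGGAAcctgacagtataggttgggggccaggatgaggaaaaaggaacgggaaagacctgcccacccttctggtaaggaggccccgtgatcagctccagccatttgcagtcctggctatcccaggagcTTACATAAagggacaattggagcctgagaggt

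The IL-6 element CTGGGAA was matched once in the FGB window, beginning 112 bases before the start, and once in the FGG window, beginning 161 bases before it. It was not matched in the FGA window. There the first 6 letters of the element, CTGGGA, begin 127 bases before the start, a shorter motif that was looked for after the other matches were seen and that 28.7% of all promoter windows hold. FGA alone of the 3 chains held the STAT motif, as TTCCTGGAA beginning 231 bases before the start. The C/EBP motif was matched 3 times in the FGB window and once each in the FGA and FGG windows, and the HNF1 half-site once in the FGA window and once in the FGB window. Of 35116 promoter windows of the same length in the RefSeq table, 9.15% held the IL-6 element, 6.57% the STAT motif, 33.2% the C/EBP motif, 6.23% the HNF1 half-site and 12.4% the glucocorticoid half-site. The table had entries for 8 of the 10 members, without ORM2 and HP. Among the other 5, the IL-6 element was matched in the SOCS3 window, and no motif was matched in the windows of IL6ST and STAT3. The SOCS3 window (chr17:78360926-78361175, minus strand) lies apart from the GENCODE 29 gene, whose start on that strand is 78360077. The FGG window lies wholly inside the GENCODE 29 gene, whose start on the minus strand is 154612967. It is upstream only of the RefSeq start. The FGA and FGB windows reach a little way into their GENCODE 29 genes. FGB and SOCS3 had 2 RefSeq entries each, of which 1 was used. A match describes letters and not binding.

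FGG, which encodes the gamma chain, fell most among the 3 chains. FGG (ENSG00000171557, minus strand, chr4:154604134-154612967, GRCh38 by GENCODE 29) had 325 and 306 FPKM in the drug libraries, against 650 and 646 FPKM in the control libraries. The groups lay far apart, with both drug libraries near the same level. The log2 fold change of FGG was -1.03 ± 0.04 (SE) on the FPKM + 1 scale (limma adjusted p = 0.000764), and 27 of the 11227 tested genes had a more negative value. FGG is the only member that the authors' deposited table marks as down. That mark does not follow the adjusted p alone. The authors mark FGB as stable at a log2 fold change of -0.99, with a deposited adjusted p of 9.42e-41.

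The beta chain gene FGB moved almost as far. FGB (ENSG00000171564, plus strand, chr4:154562956-154571086) had 295 and 274 FPKM with drug, against 556 and 549 FPKM in controls. Again no drug library came near a control. Its log2 fold change was -0.96 ± 0.04 (SE, limma adjusted p = 0.00104), and 33 tested genes had a more negative value.

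FGA, the alpha chain gene and the most abundant of the 3 per length, changed least. FGA (ENSG00000171560, minus strand, chr4:154583126-154590766) had 762 and 721 FPKM with drug, against 944 and 957 FPKM in controls, and the groups did not overlap. The log2 fold change of FGA was -0.36 ± 0.04 (SE, limma adjusted p = 0.0075), and 461 tested genes had a more negative value. Without control 1 or control 2 the adjusted p of FGA was 0.0536 and 0.0574, so that its call was lost, while FGB and FGG stayed under 0.05 with each library left out. The FGA call was also lost when the filter on low values was removed (limma adjusted p = 0.0701).

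**Figure D1:**
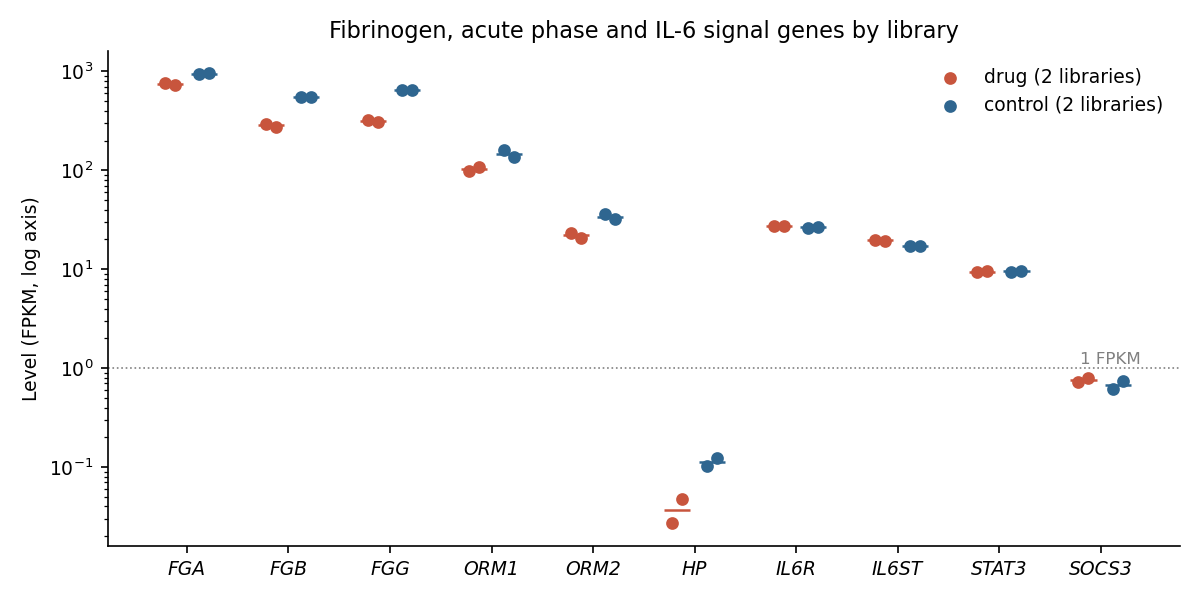
Level of each of the 10 genes in FPKM on a log axis, with 1 point for each library and a bar at the group mean, drug left of control. The fibrinogen chains lie between 274 and 957 FPKM and are lower in every drug library, while HP and SOCS3 stay under the dotted line at 1 FPKM.

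Together the 3 chains took 0.545% of all recovered reads in drug library 1 (95% Wilson interval 0.5425% to 0.547%) and 0.513% in drug library 2 (0.5103% to 0.5148%). They took 0.847% in control library 1 (0.8434% to 0.8502%) and 0.848% in control library 2 (0.8446% to 0.8504%). These intervals cover counting error only. Drug libraries thus spent less of their reads on fibrinogen. The control libraries differed by less than their intervals, while the intervals of the drug libraries did not overlap, a spread beyond counting error. By level, FGA ranked 27 among all genes in each drug library, against 25 in each control. FGB ranked 71 and 77 with drug, against 35 and 38 in controls, and FGG ranked 55 and 66 with drug, against 29 and 29 in controls.

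Because the chains fell by unequal amounts, their proportions shifted. The ratio of FGA to FGG, in FPKM within a library, was 2.34 and 2.35 with drug, against 1.45 and 1.48 in controls. The ratio of FGA to FGB was 2.58 and 2.63 with drug, against 1.70 and 1.74 in controls. Both ratios were higher in each drug library than in each control, by 0.68 and 0.60 on the log2 scale, and a ratio within a library does not depend on how libraries are scaled. FGB to FGG moved less, at 0.908 and 0.895 with drug, against 0.855 and 0.851 in controls, a difference of 0.08 on the log2 scale. FGA made up 55.1% and 55.4% of the summed FPKM of the chains with drug, against 43.9% and 44.5% in controls. By an exact two-sided permutation test over the libraries each of these 3 ratio differences had p = 0.333, the smallest p that 2 libraries against 2 allow (0.444 after Benjamini-Hochberg adjustment over the 4 ratios tested, with ORM1 to ORM2). No window of 50 bases was shared between the transcripts of the 3 chains, so reads of 1 chain would not match another over such a length.

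**Figure D2:**
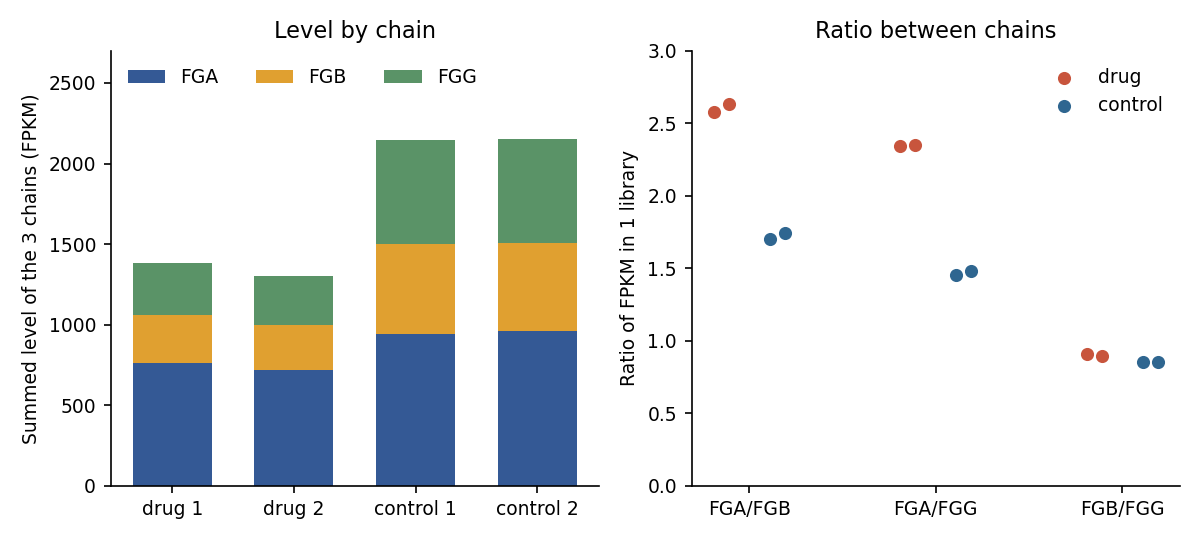
Left, summed FPKM of FGA, FGB and FGG in each library, stacked by chain, with the drug libraries first. Right, ratio of FPKM between chains within each library, where FGA over FGG is 2.34 and 2.35 with drug and 1.45 and 1.48 in controls.

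The fibrinogen genes span 50012 bases on chromosome 4, with 12039 bases between FGB and FGA and 13367 between FGA and FGG. The nearest gene on the FGB side, PLRG1, a splicing factor gene 12520 bases away, averaged 29.7 ± 0.428 FPKM with drug and 32.8 ± 0.275 FPKM in controls (SD, n = 2). PLRG1 fell by 0.14 on the log2 scale (limma adjusted p = 0.0385), a call that was lost with any 1 library left out (highest adjusted p 0.163). On the other side LRAT, the retinol acyltransferase gene, was below 1 FPKM in every library. Among the other protein-coding genes tested within 1000 kb of the cluster, RBM46, MAP9 and TMEM131L had log2 fold changes of 0.06, 0.04 and 0.02 and did not pass (limma adjusted p = 0.627, 0.683 and 0.859). NPY2R, TRIM2 and MND1, also on the list of neighbours, had group means under 1 FPKM. RNU6-1285P, a small RNA gene within PLRG1 that is not on the list, was called higher (log2 fold change 0.92, limma adjusted p = 0.0465). It had few reads, 10 and 6 with drug and 1 and 3 in controls.

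**Figure D3:**
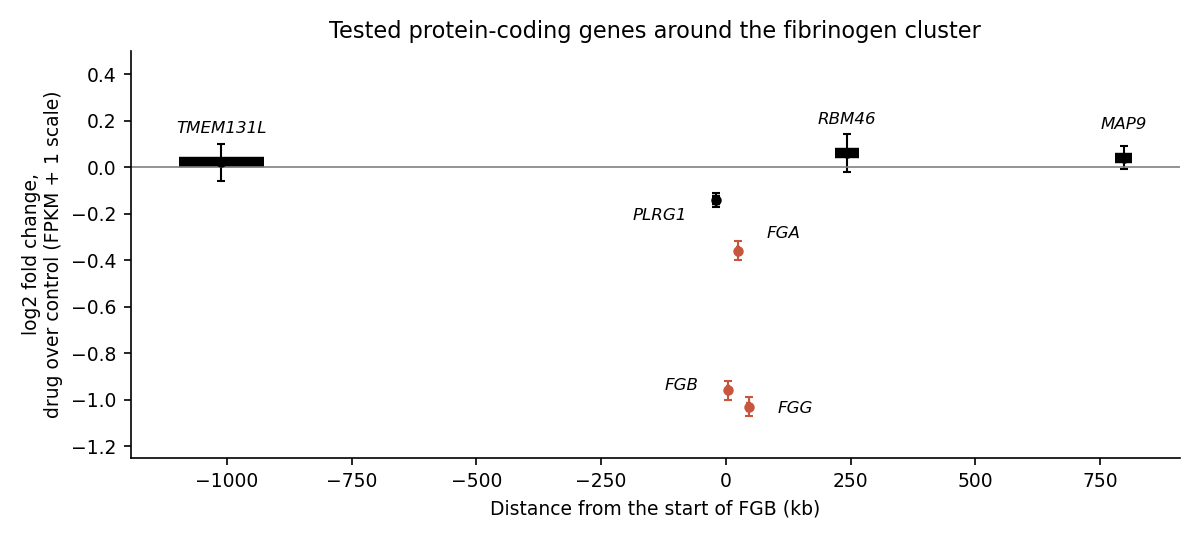
Log2 fold change of drug over control (FPKM + 1 scale, bars are SE) of the tested protein-coding genes around the fibrinogen cluster against distance from the start of FGB in kb, with thick lines for gene bodies. FGB and FGG lie at -0.96 and -1.03 and FGA at -0.36, below the neighbouring genes at -0.14 to 0.06.

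The orosomucoids, lipid-binding glycoproteins of plasma, fell by less than FGB and FGG, though this difference was not tested. ORM1 (ENSG00000229314, plus strand, chr9:114323056-114326475) had 97.9 and 108.5 FPKM with drug, against 159 and 136 FPKM in controls. The controls of ORM1 lay further apart than its drug libraries, but the groups did not overlap. Its log2 fold change was -0.51 ± 0.09 (SE, limma adjusted p = 0.028). That call was lost without control 1 (adjusted p = 0.0771), drug 1 (0.0962) or drug 2 (0.0651), without the filter on low values (0.122), and in a fit with the replicate number as a block (0.0646).

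ORM2 (ENSG00000228278, plus strand, chr9:114329869-114333252) had 23.4 and 20.6 FPKM with drug, against 35.9 and 32.1 FPKM in controls, with no overlap. Its log2 fold change was -0.61 ± 0.08 (SE, limma adjusted p = 0.0133), and the call was lost without control 1 (adjusted p = 0.0636) and without the filter on low values (0.0744). The ORM1 to ORM2 ratio in FPKM was 4.19 and 5.26 with drug, against 4.44 and 4.22 in controls, so the groups overlapped (exact permutation p = 1.0).

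The ORM genes are close copies 3393 bases apart, and the stretch of their coding sequence where their differences lie densest is shown. Their reading frames in GENCODE 29, 606 bases each, differ at 31 bases (94.9% identity). The 60 bases from base 338 to base 397 of the frame hold 14 of these differences, which are in capitals:
ORM1 coding stretch: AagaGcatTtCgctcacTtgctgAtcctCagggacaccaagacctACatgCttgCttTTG
ORM2 coding stretch: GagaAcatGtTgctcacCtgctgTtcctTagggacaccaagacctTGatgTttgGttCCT
Elsewhere the copies are alike over long runs. Of all 50-base windows in ORM1 transcripts 42.0% also occur in ORM2 transcripts, and of those in ORM2 50.2% occur in ORM1. How reads that match both genes were counted is not stated, so the split between ORM1 and ORM2 is uncertain.

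HP, the haptoglobin gene, whose product binds free haemoglobin, was barely expressed. HP (ENSG00000257017, plus strand, chr16:72054592-72061055) had 6 and 10 reads with drug, against 16 and 26 reads in controls, or 0.0271 and 0.0471 FPKM against 0.102 and 0.123 FPKM. Both drug libraries lay below both controls, on few reads. It was not in the limma test, and edgeR on recovered reads gave a log2 fold change of -1.63 that did not pass (adjusted p = 0.0674). In limma without the filter on low values its adjusted p was 0.221. HP overlaps TXNL4B on the opposite strand (597 and 614 reads with drug, 359 and 411 in controls), and 10.8% of its 50-base transcript windows occur in its neighbour HPR. Whether the counting used strand is not stated.

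The receptor and signalling genes moved little. IL6ST (ENSG00000134352, minus strand, chr5:55935095-55994993), the gp130 subunit, had 19.95 and 19.33 FPKM with drug, against 17.29 and 17.04 FPKM in controls. Both drug libraries were above both controls. Its log2 fold change was 0.18 ± 0.03 (SE, limma adjusted p = 0.0284), and 1463 tested genes had a more positive value. The limma call of IL6ST was lost with each library left out, where adjusted p-values were between 0.0869 and 0.113, with TMM-scaled FPKM (0.0647), with the replicate block (0.0517) and without the filter on low values (0.0788). edgeR on recovered reads called it higher (log2 fold change 0.16, adjusted p = 0.0237). A pseudogene on the opposite strand, AC016596.1, lies within the IL6ST locus and had 80 and 81 reads with drug and 53 and 97 in controls, against 5948 to 9691 for IL6ST.

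IL6R (ENSG00000160712, plus strand, chr1:154405193-154469450), the binding subunit, had 27.2 and 27.1 FPKM with drug, against 26.4 and 26.6 FPKM in controls. The 4 libraries were within 1 FPKM of each other. Its log2 fold change was 0.03 ± 0.03 (SE, limma adjusted p = 0.434), and -0.0003 with edgeR. STAT3 (ENSG00000168610, minus strand, chr17:42313324-42388568) had 9.33 and 9.55 FPKM with drug, against 9.47 and 9.66 FPKM in controls, and the groups overlapped. Its log2 fold change was -0.02 ± 0.04 (SE, limma adjusted p = 0.775). STAT3 acts through phosphorylation, which RNA levels do not measure. SOCS3 (ENSG00000184557, minus strand, chr17:78356778-78360077) had 0.726 and 0.804 FPKM with drug, against 0.6155 and 0.7484 FPKM in controls, on 80 and 85 reads against 48 and 79. The SOCS3 groups overlapped, and edgeR on recovered reads gave a log2 fold change of 0.12 (adjusted p = 0.785).

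**Figure D4:**
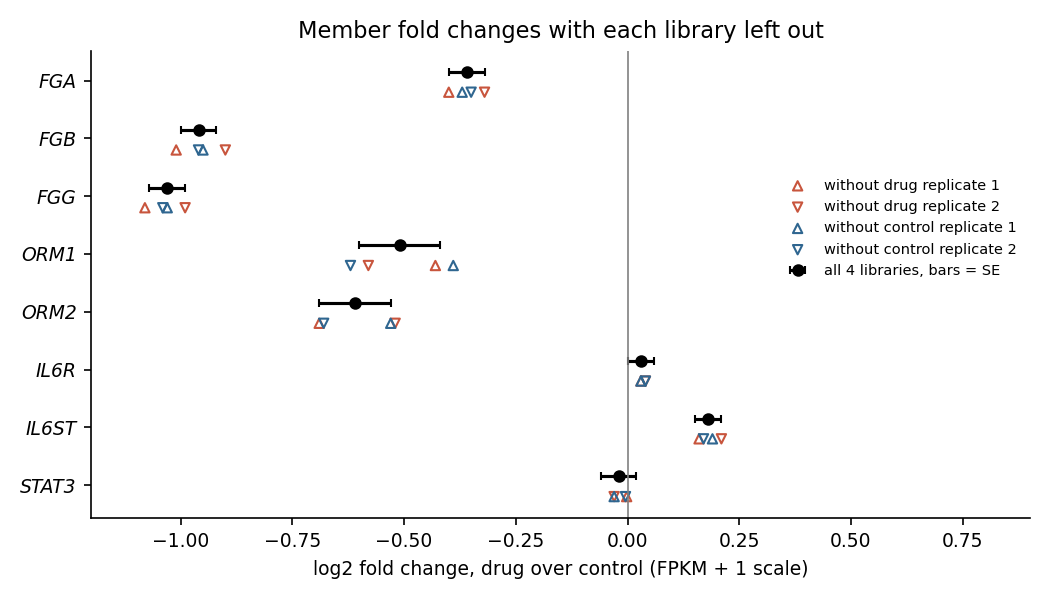
Log2 fold change of drug over control for the 8 tested members, on the FPKM + 1 scale. Black points with SE bars use all 4 libraries and open triangles leave out 1 library each, and the values of each gene stay on the same side of 0.

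Other genes of the pathway were read from 10 lists by role. Of 129 distinct genes besides the members, 117 were in the table and 84 were tested. Of these 13 were higher (15.5%) and 15 lower (17.9%) by limma, against 7.78% and 6.02% of all tested genes. The other 56 did not pass, and the median log2 fold change was 0.02, against 0.04 over all tested genes. With 1 library left out, 2 to 3 were higher and 6 to 8 lower. The counts per list below rest on few genes and stand beside these same shares over all tested genes. The lists were chosen with earlier results of these data known, so no count is a test against the shares. Some genes are on more than 1 list.

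Most other genes on a list of positive acute phase proteins did not pass limma. Plasma levels of this class rise in inflammation, but whether each listed gene, such as A2M, belongs to it in humans was not checked. Of 25 listed, 18 were in the table and 9 were tested, of which 1 was lower and none higher, with a median log2 fold change of -0.05. The lower one was CP, the copper carrier ceruloplasmin, with 161 and 156 FPKM with drug and 208 and 204 FPKM in controls (log2 fold change -0.38 ± 0.03 SE, limma adjusted p = 0.00391). It kept its call with each library left out, and edgeR called 3 genes of the list lower, CP, C3 and SERPING1. The 3 most abundant genes that did not pass limma, chosen after their values were seen, were the protease inhibitor A2M, the adhesion protein VTN and complement C3. A2M had 714 and 699 FPKM with drug, against 659 and 654 FPKM in controls (limma adjusted p = 0.0591). VTN had 172 and 166 FPKM with drug and 161 and 166 FPKM in controls (limma adjusted p = 0.335), and C3 had 160 and 162 FPKM with drug and 166 and 166 FPKM in controls (limma adjusted p = 0.239). edgeR called C3 lower (adjusted p = 0.0489). The serum amyloid gene SAA1 reached at most 0.170 FPKM in any library, and hepcidin (HAMP) was listed at 0 in both drug libraries and at 0.0735 and 0.0905 FPKM in controls.

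Negative acute phase proteins, whose levels fall in inflammation, were more often lower than higher. Of 8 tested genes 4 were lower and 1 higher, with a median log2 fold change of -0.21. ALB, the albumin gene, had 1.31 and 1.32 FPKM with drug, against 3.15 and 3.23 FPKM in controls (limma adjusted p = 0.00391), and AHSG, the fetuin-A gene, had 17.9 and 19.0 FPKM with drug, against 25.6 and 27.0 FPKM in controls (limma adjusted p = 0.006). The transferrin gene TF and the apolipoprotein gene APOA1 were lower with log2 fold changes of -0.22 and -0.21, and APOA2 was higher at 0.28. ALB and AHSG kept their calls with each library left out. APOA1 lost its call with any 1 left out and was not called by edgeR, TF without control 1, control 2 or drug 2, and APOA2 without control 1, control 2 or drug 1 and with TMM-scaled FPKM.

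Of the 4 tested IL-6 family cytokine genes 1 was lower, LIF, the leukaemia inhibitory factor gene. LIF had 0.340 and 0.574 FPKM with drug, against 1.395 and 1.264 FPKM in controls (log2 fold change -0.68 ± 0.12 SE, limma adjusted p = 0.0303). This is below the 2 FPKM asked of named genes, and the call was lost with any 1 library left out (highest adjusted p 0.120). EBI3, a subunit gene of family cytokines named after its values were seen, had 2.41 and 2.98 FPKM with drug, against 1.005 and 1.691 FPKM in controls. It missed the limma threshold (log2 fold change 0.67, adjusted p = 0.0604) and was called higher by edgeR (adjusted p = 0.0403). With the replicate block limma called 2 genes of this list higher and none lower. IL6 itself was at most 0.0243 FPKM in any library. None of the 5 other receptor genes of the family in the table (among them IL11RA, LIFR, OSMR and CNTFR) reached a mean of 1 FPKM in a group, so IL6R and IL6ST were the only tested receptors of the family among those listed.

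Downstream of gp130, 2 of 6 tested JAK kinases and other STATs were higher and none lower, with a median log2 fold change of 0.07. JAK1, a kinase bound to gp130, had 41.1 and 40.8 FPKM with drug, against 31.4 and 31.0 FPKM in controls (log2 fold change 0.38 ± 0.03 SE, limma adjusted p = 0.00326). JAK1 kept its call with each library left out. Of 11 tested inhibitors of the pathway limma called 3 higher and none lower, with a median of 0.02, while edgeR called 2 higher and 2 lower. The lower ones, named after their values were seen, were SOCS4 and SH2B3 (edgeR adjusted p = 0.0189 and 0.0303, limma adjusted p = 0.0869 and 0.148). SOCS2, a cytokine signal suppressor, had 2.43 and 2.67 FPKM with drug, against 1.52 and 1.54 FPKM in controls (limma adjusted p = 0.0182). The phosphatase gene PTPN6 and the STAT inhibitor gene PIAS1 were higher by 0.22 and 0.18 on the log2 scale. SOCS2, PTPN6 and PIAS1 lost their calls with any 1 library left out. PIAS1 also lost its call with TMM-scaled FPKM, and edgeR did not call PTPN6.

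Of 16 tested genes known as STAT3 targets 5 were lower and 1 was higher, and the median log2 fold change was -0.03. edgeR called 6 lower and none higher, and limma lost calls in both directions when 1 library was left out. FOS, an immediate early factor gene, had 20.65 and 20.1 FPKM with drug, against 32.9 and 28.5 FPKM in controls (limma adjusted p = 0.0121). NNMT, which encodes a nicotinamide methyltransferase, had 2.01 and 2.15 FPKM with drug, against 3.31 and 4.03 FPKM in controls (limma adjusted p = 0.02). CCND1 and VEGFA were lower by smaller amounts, with log2 fold changes of -0.23 and -0.18, and the metalloprotease inhibitor gene TIMP1 was higher at 0.42. Calls were lost with any 1 library left out for CCND1, VEGFA and TIMP1, without drug 1 or drug 2 for FOS, and without control 2, drug 1 or drug 2 for NNMT. edgeR did not call TIMP1.

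Among 15 tested liver transcription factors of fibrinogen and acute phase genes 4 were higher and 2 lower, with a median log2 fold change of 0.04. NR3C1, the glucocorticoid receptor gene, had 24.3 and 24.1 FPKM with drug, against 17.7 and 18.6 FPKM in controls (log2 fold change 0.40 ± 0.04 SE, limma adjusted p = 0.00588). It kept its call with each library left out. CEBPA, FOXA2 and HNF4A were higher at 0.29, 0.22 and 0.18. NR1H4, the bile acid receptor gene, had 1.122 and 1.054 FPKM with drug, against 2.86 and 2.53 FPKM in controls (limma adjusted p = 0.00734), a level under the 2 FPKM asked of named genes. PPARA was lower at -0.24. CEBPB, named after its values were seen as a factor of the C/EBP motif above, did not pass (limma adjusted p = 0.432). FOXA2, HNF4A and PPARA lost their calls with any 1 library left out, CEBPA without control 1, drug 1 or drug 2, and NR1H4 without control 1.

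Of 11 tested genes that carry IL-1 and TNF signals to acute phase genes 2 were higher, the receptor gene IL1R1 (12.04 and 11.72 FPKM with drug, 9.651 and 9.45 FPKM in controls) and the adaptor gene MYD88 (3.18 and 3.08 FPKM with drug, 2.33 and 2.13 FPKM in controls). Their limma adjusted p-values were 0.0122 and 0.0288, and both lost their calls with any 1 library left out. None was lower by limma, while edgeR called 1 lower, the NF-kappa-B inhibitor gene NFKBIA, named after its values were seen (edgeR adjusted p = 0.0123, limma adjusted p = 0.0934). Of 5 tested genes that act on fibrinogen or clear plasma glycoproteins 2 were lower. F2, which encodes the prothrombin that cleaves fibrinogen once activated, had 34.9 and 34.9 FPKM with drug, against 42.7 and 43.0 FPKM in controls (limma adjusted p = 0.00588). F2 kept its call with each library left out.

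**Figure D5:**
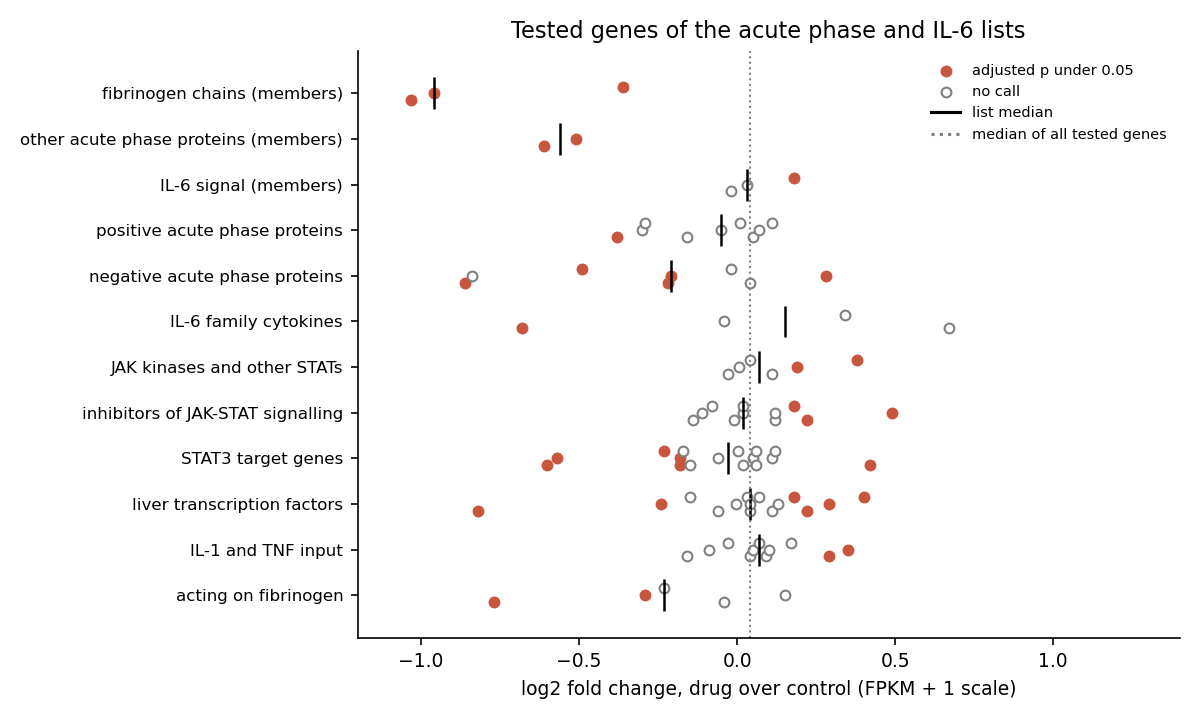
Log2 fold change of drug over control (FPKM + 1 scale) for each tested gene of the members and of the lists with a tested gene. Filled points passed limma at an adjusted p under 0.05, black bars are list medians, and the dotted line is the median of all tested genes at 0.04.

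The genes whose levels ran most like the fibrinogen chains were sought by distance. For each tested gene that is no member, log2(FPKM + 1) over the 4 libraries was centred and set against the mean centred profile of FGA, FGB and FGG. The 5 nearest were KNG1, GPX2, AGR2, CGA and PHEX, at Euclidean distances of 0.0419 to 0.0807, nearer than the chains themselves (FGB 0.173, FGG 0.252 and FGA 0.424), since their mean lies between them. KNG1 encodes kininogen, another plasma protein of the liver, and had 11.93 and 10.97 FPKM with drug, against 21.12 and 20.81 FPKM in controls. GPX2, a glutathione peroxidase gene, had 78.2 and 74.0 FPKM with drug, against 126 and 128 FPKM in controls. AGR2, CGA and PHEX had log2 fold changes of -0.80, -0.83 and -0.84 on the FPKM + 1 scale. PHEX had 0.876 and 0.823 FPKM with drug, against 2.387 and 2.246 FPKM in controls. At such low levels that scale understates its fall, which in FPKM was larger than that of any chain. The distance is a description over 4 libraries in 2 groups, and a gene that falls by about the same amount on that scale with little spread will be near.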

How the data were processed

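Per the labels, RNA of PLC8024 cells was extracted with trizol and made into stranded mRNA libraries. The build was hg38 and bcl2fastq was used, per the submitters' processing notes. Aligner, counter and gene model: not given in the sources used here. FPKM values per library are deposited, named from their values (implied against GENCODE 29 exon length, median ratio 1.00). Of 23152 genes compared, 63.8% had an implied length within 1% of it, and FGB did not. The deposited group columns are a signal, mean reads divided by size factors. Per the file headers, 2 library columns carry the word drug. The other 2, named by a letter and a number, were taken as controls 1 and 2. Their reads were recovered by use of the deposited control mean, so they match it by construction, and 100% were whole to 0.05 read. The log2 fold changes and p-values in the table are the authors' own.

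limma 3.58.1, with a trended variance, was fitted to log2(FPKM + 1) of the genes that averaged 1 FPKM or more in either group. Whole reads were recovered from FPKM and group means, 100% of them whole to 0.05 read, for edgeR 4.0.16 (TMM) and DESeq2 1.42.0 as alternatives. Other alternatives were a pseudocount of 0.1, no filter, TMM-scaled FPKM, each library left out, and the replicate number as a block. Scripts were tested on simulated data. R 4.3.3, Python 3.11.15 and scipy 1.17.1 were used.

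Members and lists were chosen with earlier results of these data known. Named besides members were list genes past the threshold with a mean of at least 2 FPKM (up to 4 a direction), the cluster's neighbours and the 5 nearest profiles. Some list genes that the rule would name are not reported here.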

Additional observations from a re-analysis of the deposited data

How the results depend on the processing

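FGB and FGG kept their direction and their calls under all 10 alternatives run for each, with log2 fold changes of -1.01 to -0.90 and -1.08 to -0.99. IL6R, STAT3, HP and SOCS3 passed under none that gave an adjusted p (DESeq2 gave none for HP); IL6R changed sign with edgeR (-0.0003). Without the filter on low values limma lost FGA (-0.36, adjusted p = 0.0701), ORM1 (-0.51, 0.122), ORM2 (-0.61, 0.0744) and IL6ST (0.18, 0.0788). In that fit 26603 genes entered both the variance trend and the adjustment. The unadjusted limma p of FGA moved as well, from 0.000155 to 0.00164. IL6ST was also lost with TMM-scaled FPKM (0.16). Taken over all tested genes, the same-numbered libraries did not deviate together (correlation 0.0278 over 11227 genes). A single correlation over all genes cannot show whether some of them share a batch by number. With the replicate block ORM1 (-0.51) and IL6ST (0.18) lost their calls, 474 genes were called higher, and 8 pathway genes were. With 1 library left out, log2 fold changes ran from -0.40 to -0.32 for FGA, -0.62 to -0.39 for ORM1, -0.69 to -0.52 for ORM2 and 0.16 to 0.21 for IL6ST. Over all genes, limma called 873 higher and 676 lower; 115 to 221 and 188 to 274 with 1 library left out, 170 and 214 without the filter, 549 higher with TMM-scaled FPKM, and 1195 lower with edgeR and 1222 with DESeq2. Pathway genes numbered 13 higher and 15 lower; 2 to 3 and 6 to 8 with 1 library left out, and 3 and 8 without the filter. The higher share of calls was 56.4% with limma, 43.1% with TMM-scaled FPKM and 44.4% with edgeR. Apart from the alternatives that change how many genes or samples enter, the cause of these shifts was not tested. Groups of 2 limit every test, and few reads limit HP and SOCS3.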
